A study of Mus musculus with 4 samples.

Results

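The small subunit of the mitochondrial ribosome was followed in leukaemia stem cells through 31 genes of the 16442 in the deposited table. Members were the genes named Mrps with a number, together with Dap3 and Ptcd3, and rows ending in -ps, which are pseudogenes, were left out. The cells came from the bone marrow of C57BL/6 mice with leukaemia and were WT or labelled knockouts of Rreb1, a zinc finger transcription factor, with 2 libraries per group. For replicate 2 of the KO group the genotype label names Rreb2 instead, and its title was used to place it. No source used here gives the leukaemia model, the age of the mice, the deleted part of Rreb1 or the sort that defined the stem cells. The animals behind the replicates are not named either, so each p-value reflects only how far these libraries lie apart, which may be technical spread.

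Mitochondria keep a ribosome of their own, which translates the hydrophobic respiratory chain subunits encoded in mitochondrial DNA. Its ribosomal RNAs are mitochondrial, but all of its proteins are encoded in the nucleus, translated in the cytosol and imported. The small subunit binds the mRNA and carries the decoding centre. Part of its proteins descend from the bacterial small subunit and part are found only in mitochondria. Dap3 is a GTP-binding protein of its head, and Ptcd3 is a pentatricopeptide repeat protein. The names do not match the subunit in every case: Mrps18a and Mrps30 sit in the large mitochondrial subunit, and Mrps36 is a component of the oxoglutarate dehydrogenase complex.

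Ribosome footprints are the stretches of mRNA that ribosomes shield from nuclease. They are given as RPKM, the read count scaled to gene length and library size, and RNA as the RPKM implied by the deposited translational efficiency (TE), the ratio of footprints to RNA. Assigned footprint reads numbered 878068 and 656249 in WT against 364087 and 274183 in the KO-labelled group, and the members together held 882, 688, 274 and 230 of them. The median member had 20 and 18 reads in the WT libraries and 7 and 6 in the KO-labelled ones, so footprint values of single members carry a large counting error. Rreb1 itself had 14.1 and 12.8 footprint RPKM in the WT libraries and 12.9 and 8.19 in the KO-labelled libraries while its RNA was 3.33 and 3.25 against 6.1 and 6.93 RPKM, WT against KO-labelled, which goes against a loss of that RNA. The group is therefore called KO-labelled throughout. Tests covered the 6387 genes with a footprint CPM, the read count scaled to library size alone, of 20 or more in 2 or more libraries, and 19 of the 31 members were among them.

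Within the WT cells the members differed widely in footprints. Mrps14, whose bacterial homologue lies in the head of the subunit, had the highest level, 394 and 437 RPKM in the WT libraries and 214 and 184 in the KO-labelled libraries, from 151, 125, 34 and 22 reads. Mrps17 followed at 175 ± 20.5 RPKM, Mrps21 at 151 ± 34.4, Mrps18c at 139 ± 3.77 and Mrps23 at 103 ± 3.8 (SD, n = 2 each). The ranges of Mrps17 and Mrps21 overlapped, as did those of Mrps21 and Mrps18c, whereas Mrps14 lay above all others in both WT libraries. At the low end Mrps10 had 8.15 ± 3.86 RPKM, Mrps7 8.9 ± 0.719 and Mrps12, the homologue of a bacterial decoding-centre protein, 9.39 ± 8.44 (SD, n = 2 each). Mrps36 had no footprint in any library, although its RNA was measured at 30.2 and 29.5 RPKM in the WT libraries and 45.6 and 45.3 in the KO-labelled libraries. Between replicates, log2 levels of the 30 members with footprints had r = 0.859 in WT and 0.826 in the KO-labelled group, as a description in which both values of a gene share its length.

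**Figure D1:**
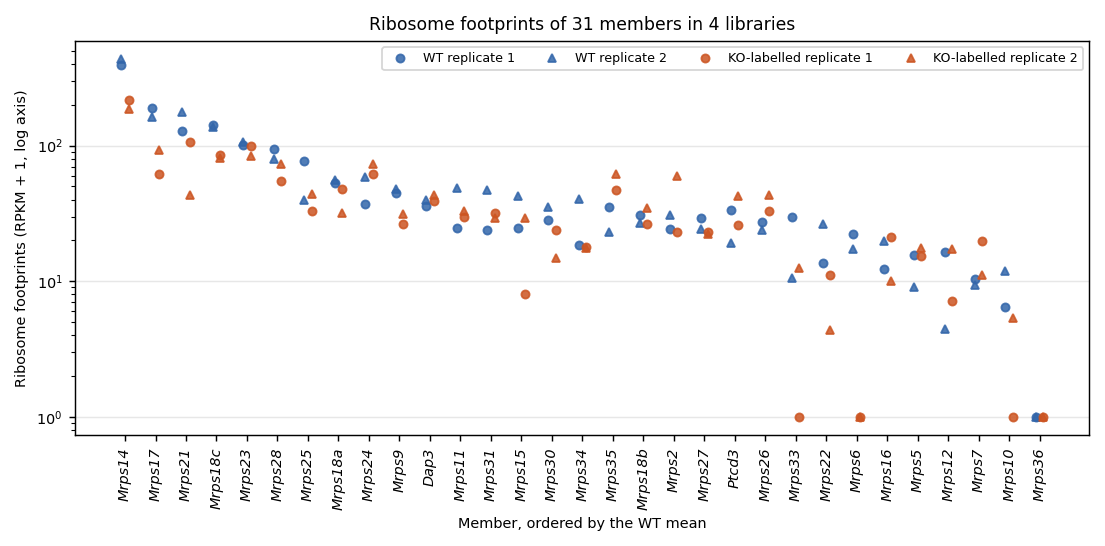
Footprints of each member in the 4 libraries, as RPKM + 1 on a log axis, ordered by the WT mean; circles and triangles are replicates 1 and 2, blue is WT and orange KO-labelled. Mrps14 is highest in all 4 libraries, and points at 1 are libraries without a footprint of that gene.

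RNA was where members differed between the groups by test. Of the 19 tested members 9 rose, 1 fell and 9 did not pass (limma, adjusted p under 0.05), where 33.1% of all tested genes rose and 27.7% fell. The median log2 difference was 0.19 over the members and 0.04 over all tested genes. Groups did not overlap in 12 members that were higher and 4 that were lower, against 44.4% and 37.6% of all genes, and 6 of 19 differences lay below 0, against 46.2%. Mrps28, listed here among the proteins of bacterial descent, had RNA of 32.7 and 37.8 RPKM in the WT libraries and 51.9 and 53.7 in the KO-labelled libraries, differing by 0.57 ± 0.08 on the log2 scale (SE, adjusted p = 0.00088 by limma). Both KO-labelled libraries lay above both WT libraries. Mrps35, a protein found only in mitochondrial ribosomes, had 6.14 and 6.85 RPKM in the WT libraries and 9.99 and 9.38 in the KO-labelled libraries, differing by 0.51 ± 0.09 on the log2 scale (SE, adjusted p = 0.00193 by limma). Mrps14 had 62.8 and 61.9 RPKM in the WT libraries and 87.6 and 85.2 in the KO-labelled libraries, differing by 0.46 ± 0.06 on the log2 scale (SE, adjusted p = 0.000593 by limma). Mrps21, the most abundant member in RNA, had 117 and 104 RPKM in the WT libraries and 146 and 156 in the KO-labelled libraries, differing by 0.45 ± 0.08 on the log2 scale (SE, adjusted p = 0.00213 by limma). In each of these the groups did not overlap. The differences of the 9 genes that rose lay between 0.26 and 0.57 on the log2 scale.

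The other members that rose were Mrps18c (log2 difference 0.45 ± 0.06), Mrps25 (0.42 ± 0.09), Mrps15 (0.40 ± 0.09), Mrps23 (0.32 ± 0.07) and Mrps9 (0.26 ± 0.08, SE in each case). With 1 library fewer, some of these calls were lost while the differences kept their direction. Mrps9 did not pass without WT replicate 1, WT replicate 2 or KO replicate 1 (differences of 0.28, 0.25 and 0.20, limma adjusted p = 0.0945, 0.137 and 0.07), and Mrps15 and Mrps23 did not pass without WT replicate 2 (differences of 0.39 and 0.28, limma adjusted p = 0.0501 and 0.0734). Mrps30, one of the proteins that sit in the large subunit, was the one that fell, with 9.86 and 9.71 RPKM in the WT libraries and 8.31 and 7.55 in the KO-labelled libraries, differing by -0.27 ± 0.08 on the log2 scale (SE, adjusted p = 0.023 by limma). Its call was lost without WT replicate 1, WT replicate 2 or KO replicate 2, at differences of -0.26, -0.28 and -0.21 (limma adjusted p = 0.126, 0.108 and 0.0707). The next lowest were Mrps2 at 15.4 and 15.1 RPKM in the WT libraries and 13.9 and 13 in the KO-labelled libraries, Ptcd3 at 8.49 and 8.87 RPKM in the WT libraries and 8.11 and 7.72 in the KO-labelled libraries and Mrps18b at 16.3 and 16.8 RPKM in the WT libraries and 16.2 and 15.4 in the KO-labelled libraries. In these 3 the KO-labelled libraries lay below both WT libraries, at differences of -0.17 ± 0.07, -0.12 ± 0.08 and -0.07 ± 0.07 on the log2 scale (SE), with limma adjusted p = 0.0846, 0.23 and 0.442.

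Because RNA was measured for every member, the fit over all 16442 rows covered the 12 members left out above. In it 14 of the 31 members rose, 0 fell and 17 did not pass (limma), against 23.1% and 15.2% of all rows. Mrps30 and Mrps5, the lowest of them, had limma adjusted p = 0.0527 and 0.0632. Mrps9, which rose among the 19, did not pass here (limma adjusted p = 0.0543). Among the 12, Mrps11 had RNA of 17.7 and 16.4 RPKM in the WT libraries and 27.5 and 29.3 in the KO-labelled libraries, differing by 0.71 ± 0.06 on the log2 scale (SE, adjusted p = 0.00722 by limma). Mrps36 differed by 0.59 ± 0.04 (SE, limma adjusted p = 0.00406). Mrps10, Mrps16, Mrps22 and Mrps33 rose as well in this fit.

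**Figure D2:**
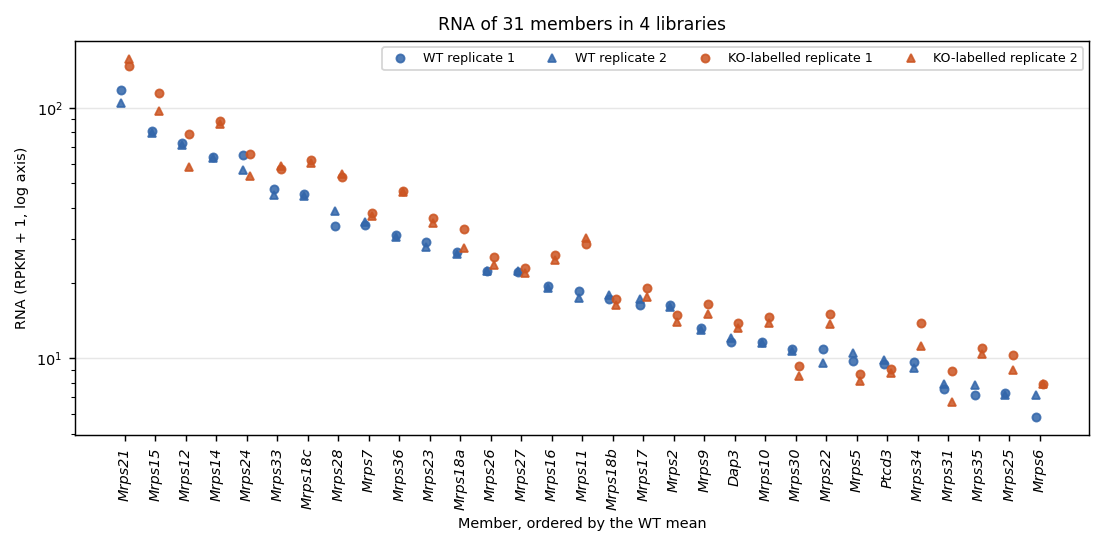
RNA of each member in the 4 libraries, as RPKM + 1 on a log axis, ordered by the WT mean; circles and triangles are replicates 1 and 2, blue is WT and orange KO-labelled. Replicates lie close together, and Mrps21 is the most abundant member in both groups.

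Short promoter stretches are shown for members that share letters of a known motif near their start site. Of the 9 members that rose above, Mrps28 and Mrps35 had no window in the table used, and of the other 7 Mrps18c alone held a motif searched. RefSeq promoter windows of 300 bases on GRCm38.p6, with 250 bases before and 50 after the start site, were found for 27 of the 31 members, in 28 windows, and 3 motifs were searched on both strands. The letters AAGATGGCG, bound by YY1, stood in the windows of 5 of the 27 genes (18.5%), against 1.64% of 27025 genes with a window. Each 30-base stretch below holds it, written 5′ to 3′ on the strand of the gene with the motif or its reverse complement in capitals:
Mrps11: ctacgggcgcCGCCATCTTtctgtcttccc
Mrps18a: ggtgcgttccAAGATGGCGgccctcagggc
Mrps24: cgggtcgcgccggcccAAGATGGCGtggtc
Mrps27: ggtgcgctccAAGATGGCGgctcccatggt
Ptcd3: gaagagtccaAAGATGGCGgcggcggcggt
They lie at chr7:78783013-78783042 (+ strand), chr17:46111005-46111034 (+ strand), chr11:5707652-5707681 (- strand), chr13:99344790-99344819 (+ strand) and chr6:71908724-71908753 (- strand). The match begins at base 12 after the start site in Mrps18a, 15 in Mrps27, 20 in Ptcd3 and 37 in Mrps24, and 108 bases before it in Mrps11. The letters ACTTCCGG, a core bound by ETS factors, stood in the windows of 4 genes (14.8%), against 4.31% of all genes:
Mrps18c: cgggtcacgtgACTTCCGGcccgggaagcg
Mrps22: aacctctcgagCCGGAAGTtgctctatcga
Mrps26: gctccgcggccACTTCCGGgccgggcgcag
Mrps27: gtggtaggaccACTTCCGGcggaggcgggc
They lie at chr5:100798591-100798620 (+ strand), chr9:98601672-98601701 (- strand), chr2:130563731-130563760 (+ strand) and chr13:99344726-99344755 (+ strand). The NRF1 letters GCGCATGCG stood in the window of 1 member, Mrps18b (3.7%), and in 1.95% of all genes. Longer forms of the YY1 and NRF1 letters had been searched first. All members are protein-coding, but the genes with a window were not limited to protein-coding ones. The shares may therefore be over unlike sets of genes. RNA of the genes with YY1 letters did not share a direction: Mrps11 rose in the fit over all rows, and Mrps18a, Mrps24, Mrps27 and Ptcd3 did not pass, at 0.19, -0.03, 0.01 and -0.12 on the log2 scale. Of the genes with ETS letters Mrps18c rose, Mrps22 rose in the fit over all rows, and Mrps26 and Mrps27 did not pass. A match is a description of the letters and not of binding.

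Footprint differences lay below 0 in 13 of the 19 tested members, against 57.4% of all genes, but 0 of the 19 passed over all genes by limma, and 0 with limma-voom on the recovered reads. Of all tested genes 1.03% passed, 0.579% higher and 0.454% lower. At an unadjusted p under 0.05 there were 3 lower and 0 higher, where 12.4% and 5.84% of all genes were. The groups did not overlap in 10 members that were lower and 2 that were higher, against 32.1% and 20.4% of all genes. The median log2 difference was -0.46 over the members and -0.13 over all tested genes. Over the 17 tested members that remain without Mrps18a and Mrps30, the large-subunit proteins, it was -0.24. Mrps14 had 394 and 437 against 214 and 184 RPKM, WT against KO-labelled, differing by -1.06 ± 0.26 on the log2 scale (SE, adjusted p = 0.163 by limma). Each KO-labelled library lay below each WT library, and the ratio of pooled reads, KO-labelled over WT, was 0.488 (exact 95% interval 0.359 to 0.652), an interval that covers counting error only. Mrps17 had 189.8 and 161 RPKM in the WT libraries and 61 and 91.2 in the KO-labelled libraries, from 60, 38, 8 and 9 reads, differing by -1.22 ± 0.33 on the log2 scale (SE, adjusted p = 0.179 by limma). Without KO replicate 2 its difference was -1.50 and passed (limma adjusted p = 0.0308), with the lone KO-labelled library assumed to vary like the WT ones. Mrps18c had 142 and 136 RPKM in the WT libraries and 84 and 79.6 in the KO-labelled libraries, from 57, 41, 14 and 10 reads, differing by -0.76 ± 0.26 on the log2 scale (SE, adjusted p = 0.239 by limma). These were the 3 members lower at an unadjusted p under 0.05.

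The remaining low members were spread more widely between replicates. Mrps21, a small protein of bacterial descent, had 127 and 175 RPKM in the WT libraries and 105 and 41.9 in the KO-labelled libraries, from 29, 30, 10 and 3 reads. The groups did not overlap, but the KO-labelled libraries lay further from each other than the nearer of them from WT (log2 difference -1.15 ± 0.52, SE, limma adjusted p = 0.341). Mrps15 had 23.5 and 41.3 RPKM in the WT libraries and 7.1 and 28.3 in the KO-labelled libraries, where KO replicate 1 rested on 2 reads and KO replicate 2 lay between the WT libraries (difference -1.07 ± 0.73, SE). Mrps30 had 27.5 and 34.5 RPKM in the WT libraries and 22.8 and 13.8 in the KO-labelled libraries and the groups did not overlap (difference -0.76 ± 0.40, SE, limma adjusted p = 0.393). Mrps28 had 93.9 and 79.2 RPKM in the WT libraries and 54.1 and 71.9 in the KO-labelled libraries, a difference of -0.46 ± 0.31 (SE). Of the members above 0, Mrps35 was highest, with 34.4 and 22.2 RPKM in the WT libraries and 45.8 and 60.8 in the KO-labelled libraries from 29, 14, 16 and 16 reads. Its groups did not overlap, and its difference was 0.91 ± 0.37 (SE, limma adjusted p = 0.305). Mrps24 had 36.4 and 57.8 RPKM in the WT libraries and 60.3 and 72.8 in the KO-labelled libraries, also without overlap (difference 0.52 ± 0.36, SE). Mrps2 had 23.5 and 29.7 RPKM in the WT libraries and 22 and 58.5 in the KO-labelled libraries, where KO replicate 2 alone was above WT, and without it the difference was -0.25 in place of 0.43. Ptcd3 had 32.4 and 18.1 RPKM in the WT libraries and 24.8 and 41.6 in the KO-labelled libraries, with overlapping groups.

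TE, which is the footprint difference less the RNA difference by its construction, had differences below 0 in 14 of 19 members, against 59.6% of all genes, and again 0 of 19 passed by limma. Of all tested genes 0.0% passed, and 13.0%, or 830, had an unadjusted p under 0.05. At an unadjusted p under 0.05 there were 6 lower and 0 higher, where 9.97% and 3.02% of all genes were. The groups did not overlap in 12 members that were lower and 0 that were higher, against 32.3% and 15.6% of all genes. The median log2 difference was -0.51 over the members and -0.15 over all tested genes. Mrps21 had TE of 1.08 and 1.68 in the WT libraries and 0.722 and 0.273 in the KO-labelled libraries, differing by -1.60 ± 0.60 on the log2 scale (SE, adjusted p = 0.373 by limma). Mrps14 had TE of 6.19 and 6.97 in the WT libraries and 2.43 and 2.15 in the KO-labelled libraries, differing by -1.52 ± 0.31 on the log2 scale (SE, adjusted p = 0.29 by limma). Its replicates lay close together in both groups, unlike those of Mrps21. Mrps15 had TE of 0.303 and 0.531 in the WT libraries and 0.0705 and 0.30 in the KO-labelled libraries, a difference of -1.46 ± 0.86 (SE). Mrps17, with the highest TE of all members in WT, had 11.6 and 9.36 in the WT libraries and 3.25 and 5.23 in the KO-labelled libraries, differing by -1.34 ± 0.39 on the log2 scale (SE, adjusted p = 0.307 by limma), and passed without KO replicate 2 (-1.68, limma adjusted p = 0.0453). Mrps18c had TE of 3.14 and 3.09 in the WT libraries and 1.36 and 1.33 in the KO-labelled libraries, differing by -1.21 ± 0.31 on the log2 scale (SE, adjusted p = 0.298 by limma). The members with the highest differences were Mrps2 at 1.49 and 1.9 against 1.54 and 4.24, WT against KO-labelled, and Mrps24 at 0.576 and 1.04 against 0.936 and 1.38, and in both the groups overlapped.

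**Figure D3:**
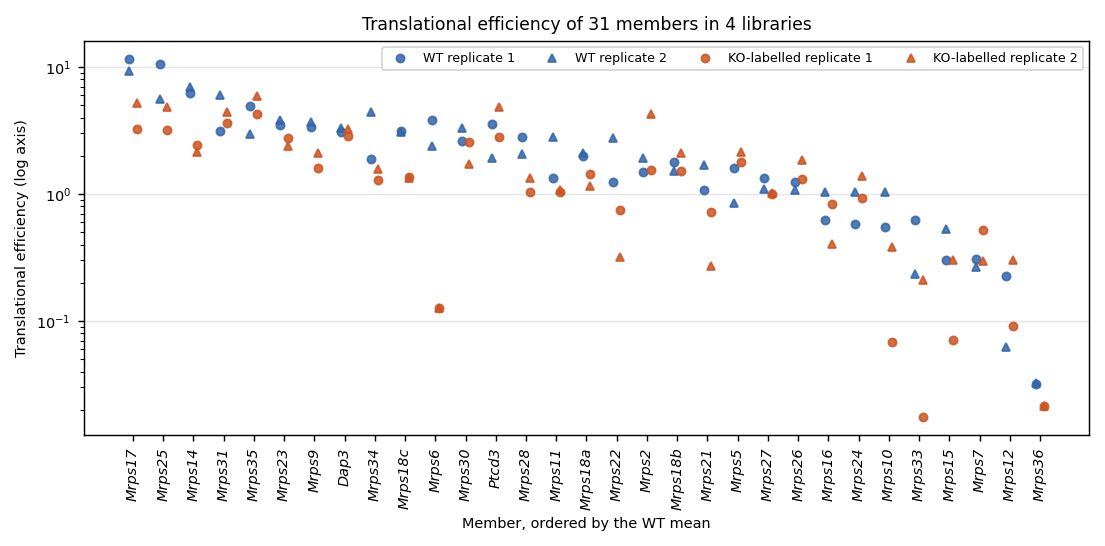
TE of each member in the 4 libraries on a log axis, ordered by the WT mean; circles and triangles are replicates 1 and 2, blue is WT and orange KO-labelled. Mrps17, Mrps25 and Mrps14 lead in WT, and a gene without footprints in a library has a TE set by the 1 added to its value.

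Of the 9 members whose RNA rose, 8 had a TE difference below 0, and the exception was Mrps35. Of the 2112 tested genes whose RNA rose, 69.5% had a TE difference below 0, and these made up 23.0% of all tested genes. Higher RNA lowers TE by its construction, so a TE difference below 0 in genes chosen for higher RNA is partly set in advance. In 10 of the 19 tested members RNA was higher and TE lower, both without overlap, against 18.6% of all tested genes. TE levels in WT spanned from 0.144 ± 0.115 for Mrps12 to 10.5 ± 1.61 for Mrps17 among members with footprints (SD, n = 2 each). Mrps15 and Mrps12 combined high RNA with low TE. RNA of Mrps15 was 79.4 ± 0.935 RPKM and that of Mrps12 70.7 ± 1.14 RPKM in WT, against 6.19 ± 0.0858 RPKM for Mrps25, whose TE was 8.05 ± 3.53 (SD, n = 2 each). As a description, the TE differences of the 19 tested members correlated with the log2 length assigned to the gene at r = 0.601, and those of all tested genes at 0.229, where all points share the same libraries.

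**Figure D4:**
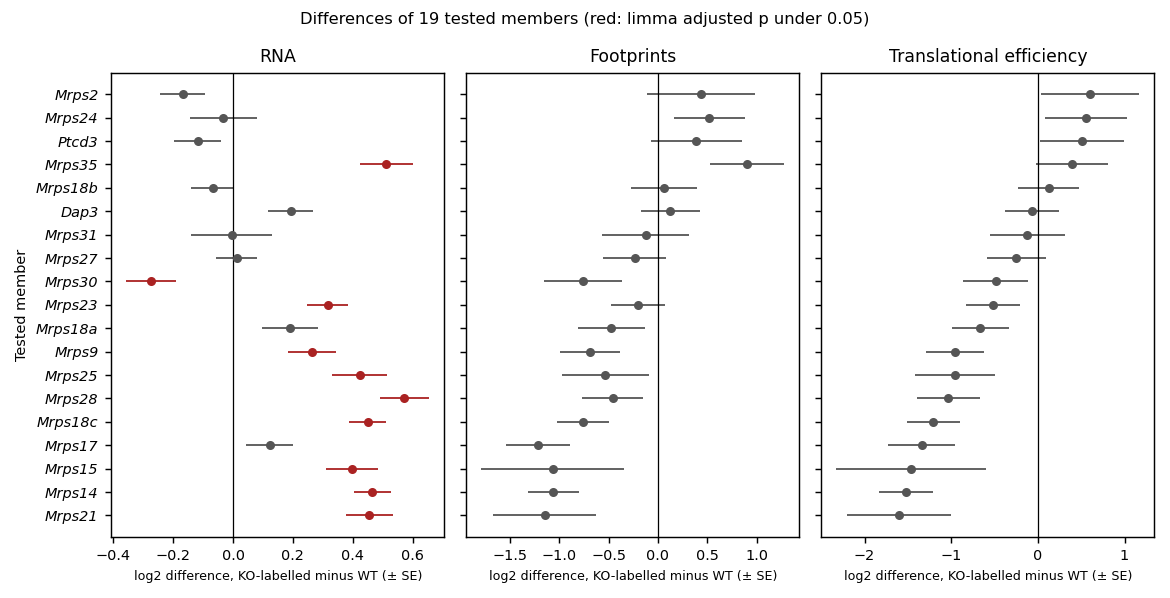
Log2 differences, KO-labelled minus WT, with SE (n = 2 per group) of the 19 tested members in RNA, footprints and TE, ordered by the TE difference; red marks a limma adjusted p under 0.05. In RNA 9 members are red above 0 and Mrps30 is red below 0, and no point is red in footprints or TE. The x axes differ in range between the panels.

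By descent, the 9 tested members with a bacterial homologue had a median TE difference of -1.21, with 7 lower without overlap, and a median footprint difference of -0.76. Their RNA rose in 6 of 9 and fell in 0. Of all tested genes 33.1% rose in RNA and 32.3% were lower in TE without overlap. The 8 tested members listed as found only in mitochondrial ribosomes had a median TE difference of -0.09, with 3 lower without overlap, and a median footprint difference of -0.03. Their RNA rose in 3 of 8 and fell in 0, so that both of their counts were near the share of all genes. Mrps18b stands on this second list, although it is related to a bacterial protein as Mrps18a and Mrps18c are. The lists also differed in assigned length, which ran from 261 to 1193 in the tested genes of the first and from 513 to 2106 in those of the second. As TE differences of the members correlated with that length, descent and length were not separated here. The difference between these lists was not tested, and 7 of 16 and 4 of 12 of their genes had too few footprint reads to enter. Summed over all 16 genes of bacterial descent, footprints were 1175 and 1278 RPKM in WT and 722 and 747 RPKM in the KO-labelled libraries, of which Mrps14 gave 394 and 437 RPKM in WT and 214 and 184 RPKM in the KO-labelled libraries. Over the 12 genes of the second list, Mrps18b included, the sums were 444 and 417 against 377 and 427 RPKM, and here the groups overlapped.

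The 3 Mrps18 proteins are related to a single bacterial protein, whose place in the small subunit Mrps18c takes, and they differed in level and in difference. Mrps18c had the most footprints, as given above, Mrps18a had 52.2 and 54.3 RPKM in the WT libraries and 46.6 and 31 in the KO-labelled libraries and Mrps18b 29.9 and 26 RPKM in the WT libraries and 25.2 and 33.5 in the KO-labelled libraries. Mrps18a did not overlap between the groups in footprints (-0.48 ± 0.34) or in TE (-0.67 ± 0.33, SE), and its RNA, at 25.7 and 25.2 against 32 and 26.5 RPKM, did not pass (limma adjusted p = 0.12). Its RNA difference of 0.19 depended on the KO-labelled library, at 0.06 without KO replicate 1 (limma adjusted p = 0.441) and 0.32 without KO replicate 2 (limma adjusted p = 0.00936). Mrps18b had TE of 1.78 and 1.51 in the WT libraries and 1.52 and 2.11 in the KO-labelled libraries, and its groups overlapped. Dap3 had 34.6 and 38.8 footprint RPKM in the WT libraries and 38.3 and 41.9 in the KO-labelled libraries and 10.7 and 11.1 RNA RPKM in the WT libraries and 12.8 and 12.3 in the KO-labelled libraries. Its differences were 0.13 ± 0.30 for footprints (SE, limma adjusted p = 0.849) and 0.19 ± 0.08 for its RNA (SE, limma adjusted p = 0.0583), and with each library centred on its median the RNA difference was 0.21 and passed (limma adjusted p = 0.0494). Ptcd3 had TE of 3.53 and 1.93 in the WT libraries and 2.83 and 4.88 in the KO-labelled libraries, a difference of 0.51 ± 0.48 (SE). Mrps23, Mrps25, Mrps27 and Mrps31, all specific to mitochondria, had TE differences of -0.51 ± 0.31, -0.96 ± 0.46, -0.25 ± 0.34 and -0.12 ± 0.43, and Mrps9 and Mrps28 of -0.96 ± 0.33 and -1.03 ± 0.36 (SE). Of these 6 the groups overlapped in Mrps31 alone.

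The 12 untested members had 0 to 41 footprint reads over all libraries. Mrps6 had 7, 4, 0 and 0 reads, and taking 3 reads as the limit that a count of 0 allows over the KO-labelled group, its footprints were at least 1.53-fold lower there, a value that takes the 11 WT reads as exact. With their counting error included, the ratio of KO-labelled over WT was 0 with an exact 95% upper bound of 0.958. Its RNA was 4.84 and 6.18 against 6.94 and 6.89 RPKM, WT against KO-labelled. Mrps10 and Mrps33 had 1 read in the KO-labelled group each, against 10 in WT, a pooled ratio of 0.24 (exact 95% interval 0.00554 to 1.69) in both. Mrps22, a protein only mitochondria have, had 12, 18, 4 and 1 reads and a ratio of 0.401 (exact 95% interval 0.121 to 1.04), and Mrps34 10, 17, 4 and 3 reads and 0.623 (exact 95% interval 0.229 to 1.47). Mrps5, Mrps7 and Mrps26 lay above 1, at 1.3 (exact 95% interval 0.609 to 2.66), 1.68 (exact 95% interval 0.544 to 4.9) and 1.46 (exact 95% interval 0.696 to 2.97). Mrps11, Mrps12 and Mrps16 lay at 0.881, 1.03 and 1.07. The ratios are of reads scaled to library size, and their intervals cover counting error only. Of the 11 intervals, those of all but Mrps6 held 1, so a difference was not detectable at this depth. In the RefSeq annotation the spans of 7 members, introns included, overlap another protein-coding gene (Dap3, Mrps2, Mrps6, Mrps7, Mrps18a, Mrps23 and Mrps25). Shared exons were not looked for, and no source used here states whether counting used strand. Whether reads of such pairs can be told apart is therefore not known, and their values are uncertain.

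Chchd1 and Aurkaip1 are proteins of the small subunit that carry other names. RNA of both rose, that of Chchd1 by 0.62 ± 0.07 and that of Aurkaip1 by 0.56 ± 0.08 (SE, limma adjusted p = 0.000305 and 0.000895). Their footprint differences were 0.01 ± 0.35 and -0.20 ± 0.28 (SE). Their TE differences were -0.61 ± 0.37 and -0.76 ± 0.37 (SE), and 0 of 2 passed by limma. Both were lower in TE without overlap, where 32.3% of all tested genes were. Of 9 assembly factors of the subunit 4 were tested. RNA of Mettl17 rose by 0.81 ± 0.09 and that of Noa1, a GTPase, fell, differing by -0.52 ± 0.09 on the log2 scale (SE, adjusted p = 0.000189 and 0.00204 by limma), while Eral1 and Rbfa did not pass. In footprints 0 of 4 passed (limma, 1 lower at an unadjusted p under 0.05). The list of factors of mitochondrial initiation, elongation, release and recycling held 12 genes, of which 11 had a row and 7 were tested. RNA of Mtrf1l and Mrpl58 rose by 0.34 ± 0.09 and 0.69 ± 0.07 (SE), 5 did not pass, and in footprints and TE 0 of 7 passed (limma, 0 at an unadjusted p under 0.05). The RNAs that this ribosome translates are encoded in mitochondrial DNA. Of 13 such mRNAs 7 were tested and RNA of all 7 rose (33.1% of all tested genes did), with a median difference of 0.95. Of the 6 not tested 5 had no footprint in any library, and mt-Nd3 had footprints in WT replicate 2 alone. RNA of these 6 was highest in mt-Atp6, at 8.91 and 6.39 RPKM in the WT libraries. The lowest of the 7 tested in WT, mt-Nd2, had 150 and 124 RPKM. Why these 6 rows were low was not tested. In the fit over all rows 1 of the 13 rose and 12 did not pass. Their summed RNA was 6242 and 5181 RPKM in WT and 8554 and 15182 RPKM in the KO-labelled libraries, which lay far apart from each other. By limma 0 passed in footprints (0 at an unadjusted p under 0.05), where the median was 0.12. TE differences lay below 0 in all 7, with a median of -0.71. In 5 of the 7 TE was lower without overlap, against 32.3% of all tested genes. By limma 0 passed in TE, and 2 were lower at an unadjusted p under 0.05, where 9.97% of all tested genes were.

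Beside the members, the proteins of the large mitochondrial subunit had 36 of 48 genes tested, with 24 higher and 1 lower in RNA, 0 called in footprints and 0 in TE (limma, where an unadjusted p under 0.05 marked 6 and 7 as lower and 0 as higher). Their median differences were 0.28 in RNA, -0.58 in footprints and -1.02 in TE, with 21 lower in TE without overlap. The proteins of the cytosolic small subunit had 20 of 35 genes tested, all 20 higher in RNA and 0 called in footprints or TE (limma, with 1 higher and 1 lower in each at an unadjusted p under 0.05). Their medians were 0.55, 0.09 and -0.44, with 7 lower in TE without overlap. Of all tested genes 33.1% rose and 27.7% fell in RNA, and 32.3% were lower in TE without overlap, close to the 7 of 20. At an unadjusted p under 0.05 (limma), 12.4% of all tested genes were lower and 5.84% higher in footprints. In TE these shares were 9.97% and 3.02%. These counts share the same 4 libraries, and no difference between the lists was tested.

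**Figure D5:**
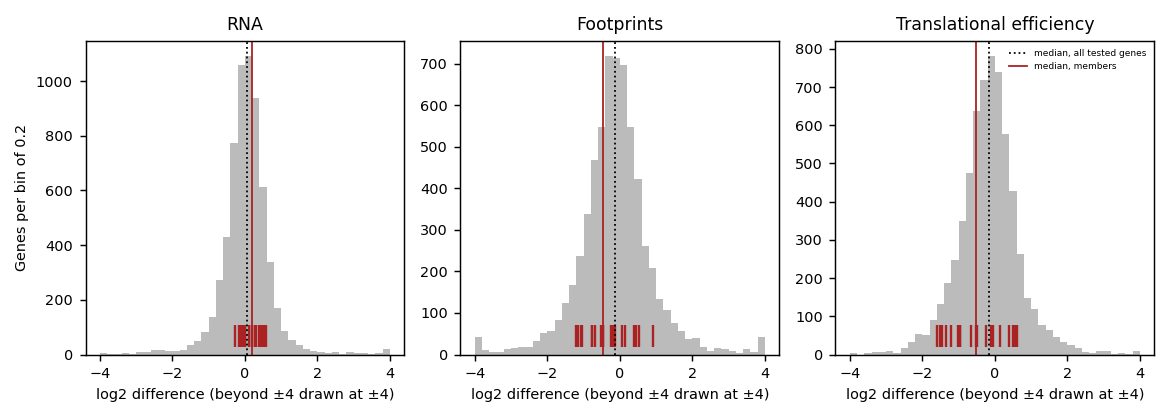
Histograms of the log2 differences, KO-labelled minus WT, of all 6387 tested genes in RNA, footprints and TE, in bins of 0.2, with the 19 tested members as red ticks. The dotted line is the median of all tested genes and the red line that of the members, which lies above it in RNA (0.19 against 0.04) and below it in footprints (-0.46 against -0.13) and TE (-0.51 against -0.15).

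Marker genes of other cells moved with the groups. Summed RNA of 10 markers of mature myeloid cells was 31908 and 31172 RPKM in WT and 11102 and 10689 RPKM in the KO-labelled libraries. Of the 9 that were tested 7 fell (limma), where 27.7% of all tested genes did. Chil3 fell most, from 10542 and 10534 to 313 and 291 RPKM, and Ly6c2 rose, from 232 and 211 to 645 and 705 RPKM (limma). Summed RNA of 8 stem and progenitor genes, Kit and Cd34 among them, was 178 and 183 RPKM in WT and 292 and 283 RPKM in the KO-labelled libraries. Of these 8 genes 5 rose (limma), where 33.1% of all tested genes did. The other 3, Meis1, Hoxa9 and Ptprc, did not pass, at -0.07, 0.008 and -0.07 on the log2 scale. Cd48 alone gave 62.8 and 67.3 RPKM of the sum in WT and 105 and 97.9 RPKM in the KO-labelled libraries. Neither Kit nor Cd34 was at 0 in any library. The mature myeloid sum exceeded the stem and progenitor sum in every library, but this did not hold gene by gene. RNA of Itgam and Ly6g lay below that of Cd48 in every library. Elane gave 7205 and 6264 RPKM of the mature myeloid sum in the KO-labelled libraries. The 6 markers of mast cells and basophils in the table summed to 31.2 and 28.1 RPKM in WT and 299.6 and 290.0 RPKM in the KO-labelled libraries. Cpa3 gave most of the latter, at 221 and 213 RPKM, while Ms4a2 stayed below 1 RPKM in every library. The 7 markers of T and NK cells summed to 18.2 and 18.6 RPKM in WT and 436 and 368 RPKM in the KO-labelled libraries, mostly Nkg7. In the fit over all rows 4 of these 7 rose (limma), against 23.1% of all rows. RNA of Lck was 0.821 and 0.808 RPKM in WT and 4.17 and 4.17 RPKM in the KO-labelled libraries, while Cd3d, Cd3e and Cd3g stayed below 1 RPKM in every library. RNA of the hemoglobin gene Hba-a1 was 40.9 and 34.3 RPKM in WT and 197 and 241 RPKM in the KO-labelled libraries, and that of Hbb-bs 21.0 and 18.8 RPKM in WT and 103 and 122 RPKM in the KO-labelled libraries. The 4 markers of megakaryocytes summed to 1.15 and 1.64 RPKM in WT and 20.8 and 22.2 RPKM in the KO-labelled libraries, nearly all of the latter Itga2b, while Pf4, Ppbp and Gp9 stayed below 2 RPKM. The 4 of stroma and endothelium summed to 12 and 12.3 RPKM in WT and 73 and 80.3 RPKM in the KO-labelled libraries. Most of the latter was Pecam1, at 48.7 and 53 RPKM. The 2 markers of B cells summed to 43 and 40.5 RPKM in WT and 28.3 and 26.4 RPKM in the KO-labelled libraries. The B cell sum was mostly Cd79b, whereas Cd79a went from 1.76 and 1.44 RPKM in WT to 3.09 and 3.71 RPKM. The erythroid genes Klf1 and Slc4a1 and the stromal gene Cxcl12 stayed below 1 RPKM of RNA in every library, and Prss34 was at 0 in WT. The part of these cells in the differences of the members was not tested. In such bulk samples fewer cells of a type and less RNA per cell cannot be told apart.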

How the data were processed

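Ribosome footprints were measured in 2 WT and 2 KO-labelled libraries of mouse leukaemia stem cells. Per the labels' protocols, lysates were digested with micrococcal nuclease and gel-purified at 25 to 40 nucleotides. The submitters' processing notes list HISAT2 2.1.0, CASAVA, DESeq2 and featureCounts without roles, and the human build hg38, although samples and symbols are mouse. The authors deposited footprint values that match RPKM plus 1, a unit read from the values. The TE deposited by the authors is a ratio of this value to RNA RPKM plus 1. A p-value column the authors deposited was left out.

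RPKM steps gave whole reads, within 0.002, for each of the 10536 genes that had footprints in 2 or more libraries. A factor common to all libraries cannot be recovered and leaves ratios as they are. RNA reads were not recovered, so the depth behind RNA values is unknown. As the table holds RPKM, limma 3.58.1 in R 4.3.3 (trend, two-sided, Benjamini-Hochberg, threshold 0.05) was run on log2(RPKM + 1), or log2 TE, over genes with a CPM of 20 or more in 2 or more libraries, with group as the only term. The added 1 makes the change of low genes look smaller. Intervals of pooled reads are exact (Clopper-Pearson), and cover counting error only. Scripts ran in Python 3.11.15 and were tested on simulated data. Values in every library are given for members past the threshold in footprints or TE, the 6 lowest and 4 highest differences in footprints, the 4 highest and 4 lowest in RNA, the 4 lowest and 2 highest in TE, Dap3, Ptcd3 and the Mrps18 family. Sums over marker genes were taken over the markers in the table. For 1 list a sum is not reported here. Members and lists were chosen with earlier results of these data known.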

Additional observations from a re-analysis of the deposited data

How the results depend on the processing

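Footprint reads limit these results: with a median of 6 reads per member in KO replicate 2, only large differences could pass. The edgeR and DESeq2 alternatives were not run, because the table holds RPKM in place of counts. The reads recovered from it were fitted with limma-voom only. In footprints 66 genes passed, and 0 with no filter on low genes, 16 with a CPM of 20 in all 4 libraries, 111 with a pseudocount of 10 and 32 with the replicate block. Leaving out 1 library gave 0 to 1085 (0 without either WT library, 327 without KO replicate 1 and 1085 without KO replicate 2), and 0 to 1 members lower, the 1 being Mrps17 without KO replicate 2. In RNA 3880 genes passed and 6286 with no filter. The members called higher in RNA were 9, and 8 of the same 19 with no filter, 6 of the 11 with a CPM of 20 in all 4 libraries and 6 to 10 without single libraries. The members called lower in RNA were 1, Mrps30, and 0 with no filter. With a CPM of 20 in all 4 libraries the count was 0 as well, but Mrps30 was not among the 11 members fitted there. In TE 0 genes passed, 1 with a CPM of 20 in all 4 libraries and 0 to 698 without single libraries (148 without KO replicate 1, 698 without KO replicate 2), with 0 to 1 members lower, again Mrps17 without KO replicate 2. The median over the members, -0.46 in footprints and 0.19 in RNA, was -0.24 and 0.26 over the 11 that had a CPM of 20 in all 4 libraries; without single libraries it ranged from -0.45 to -0.25 in footprints, from 0.16 to 0.32 in RNA (highest without KO replicate 2) and from -0.61 to -0.42 in TE. No cause was tested. With limma-voom on the recovered reads, with assigned reads as library sizes, 62 genes and 0 members passed.

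The replicate numbers are not stated to pair the libraries. Deviations of same-numbered libraries correlated at 0.022 in footprints, -0.335 in RNA and 0.0082 in TE. With the replicate block the members' calls numbered 9 higher and 1 lower in RNA and 0 in footprints and TE, as without it, and with a crossed block, chosen after seeing the data, 11 and 1.

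Signs turned for some members, none of them called. With a pseudocount of 10, RNA of Mrps31 was 0.0012, and median centred 0.011, with TE of 0.017, and TE of Dap3 was 0.071. Without single libraries, footprints ranged from -0.14 to 0.257 for Mrps18b, -0.25 to 1.12 for Mrps2, -0.62 to 0.37 for Mrps31 and -0.014 to 0.80 for Ptcd3. RNA ranged from -0.18 to 0.11 for Mrps24, -0.018 to 0.043 for Mrps27 and -0.21 to 0.20 for Mrps31. TE ranged from -0.16 to 0.027 for Dap3, -0.11 to 0.36 for Mrps18b, -0.13 to 1.33 for Mrps2 and -0.58 to 0.34 for Mrps31.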
